A study of Mus musculus with 18 samples.

Results

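The markers of tubular injury described here are 10 genes, Havcr1, Lcn2, Spp1, Clu, Vim, Timp1, Vcam1, and the genes of the fibrinogen chains, Fga, Fgb, and Fgg. A probe was taken when its symbol in the table of B6 and NZW mice was one of these names, which gave 15 probes of 9 genes among 46643 probes. No probe carried the symbol Clu. Of the 15 probes, 8 had a counterpart by search key in the table of BALB/C, DBA1, and 129/svj mice, where they correspond to 7 of 46147 rows, because both Fga probes share 1 row. Havcr1, Lcn2, Spp1, Fgg, 1 of 2 Vim probes, and 2 of 5 Vcam1 probes were therefore read in B6 and NZW only.

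RNA of the kidney cortex was measured on 18 Illumina mouse BeadChip arrays from 15 mice aged 2 months, 3 per strain. Every mouse had been challenged with an antibody against the glomerular basement membrane (anti-GBM), which starts an immune nephritis, and no unchallenged mouse is among the arrays, so differences between strains before and after the challenge cannot be told apart. BALB/C and B6 are described as resistant, and DBA1, 129/svj, and NZW as sensitive, to this nephritis. The sex of the mice and the time after challenge are not given in the sources used here. In RNA of whole cortex, fewer cells of a type and less RNA per cell cannot be told apart.

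When a tubule is damaged, its epithelial cells lose part of their transport program and switch on genes that are silent or weak in the healthy kidney. Kidney injury molecule 1 (Havcr1) is a receptor for dying cells that appears on injured proximal tubules. Lipocalin 2 (Lcn2), osteopontin (Spp1), and clusterin (Clu) are secreted proteins made by stressed tubules, Timp1 is a secreted inhibitor of matrix metalloproteinases, Vim is the intermediate filament of mesenchymal and of dedifferentiated epithelial cells, and Vcam1 is an adhesion molecule for leukocytes on endothelium and on failing tubule cells. Fibrinogen is the clotting protein of plasma, built from alpha (Fga), beta (Fgb), and gamma (Fgg) chains, made mainly in the liver and also in injured kidney.

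Levels below are background-corrected, quantile-normalized intensities on the log2 scale, so a difference of 1 is a 2-fold difference. The tables were normalized separately, so levels are compared within a table only. A probe was tested when its deposited detection p was 0.05 or less in at least 3 mice of its table. It was called when the Benjamini-Hochberg adjusted p over all tested probes was below 0.05 in limma. Of the members, 9 of 15 probes were tested in B6 and NZW and 4 of 7 rows in BALB/C, DBA1, and 129/svj. The median signal was 81.1 to 89.8 in the arrays of B6 and NZW and 118.5 to 151.6 in the others, and each array detected 30.45% to 36.37% of its probes. The arrays of DBA1 mouse 3 and 129/svj mouse 3 stood apart from their strain over all probes. DBA1 mouse 3 was the highest of its strain by at least 0.5 for 9.15% of all tested probes and the lowest by as much for 9.67%, and 129/svj mouse 3 for 6.78% and 6.23%, against 4.53% or less for each other mouse in either direction. In B6 and NZW no mouse exceeded 3.43%.

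Between B6 and NZW, Havcr1 was lower in B6, whereas Lcn2, Spp1, Timp1, and Fga were higher in B6. The fit called 6 of the 9 tested member probes, 5 higher and 1 lower in B6. Over all 16766 tested probes it called 18.8%, with 9.24% higher and 9.60% lower in B6. The levels of B6 and NZW mice did not overlap in 7 of the 9 member probes, against 37.3% of all tested probes. The median difference was 0.80 over the members and -0.04 over all tested probes. With scaling to the 75th percentile of each array in place of quantiles, all probes split into 1352 higher and 2269 lower in B6, against 1549 and 1610, and 4 member probes were called, 3 higher and 1 lower. The number called changed when a mouse was left out, which also leaves fewer mice for the fit. It was 1 without B6 mouse 1, 2 without B6 mouse 2, 7 without B6 mouse 3, 1 without NZW mouse 1, 2 without NZW mouse 2, and 1 without NZW mouse 3. B6 mouse 3 was the lowest B6 mouse in all 9 member probes. Leaving it out therefore had to raise the difference wherever B6 was higher. A smaller p without it, given for single probes below, is thus no separate evidence.

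Havcr1 (probe ILMN_2604307, chromosome 11) had levels of 7.92, 7.54, and 5.40 in the B6 mice and of 10.27, 9.05, and 9.85 in the NZW mice. All NZW mice were above all B6 mice, and B6 mouse 3, where the probe was only just detected, was the lowest of the 6. The difference of B6 minus NZW was -2.77 (SE 0.60, adjusted p = 0.013 with limma), a 6.82-fold difference, and it was -1.995 (adjusted p = 0.0056 with limma) without B6 mouse 3. The gene rests on this 1 probe, and its call held in 4 of the 6 fits that left out a mouse. Within B6 the highest mouse was 5.72-fold above the lowest, and within NZW 2.34-fold. The summed signal of 18 tested proximal tubule genes, the cells on which Havcr1 appears, was 143033 to 158715 in B6 and 171607 to 178258 in NZW. Against 9.24% higher and 9.60% lower over all tested probes, 1 of their 27 probes was called higher and 9 lower in B6. Among these, the lactate transporter Slc5a12 fell by 1.35 (SE 0.18) and the endocytic receptor megalin, Lrp2, fell by 1.16 (SE 0.13) in B6 relative to NZW. Their part in the Havcr1 result was not tested.

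Lcn2 (probe ILMN_2712075, chromosome 2) had levels of 12.29, 12.35, and 10.55 in the B6 mice and of 10.41, 9.38, and 10.01 in the NZW mice. B6 mouse 1 and mouse 2 were close together and far above NZW, whereas B6 mouse 3 was only just above the highest NZW mouse. The difference was 1.80 (SE 0.46, adjusted p = 0.028 with limma), or 3.48-fold, and 2.39 (adjusted p = 0.00088 with limma) without B6 mouse 3. The call held in 2 of the 6 fits that left out a mouse, with adjusted p up to 0.09 in limma. Neutrophils also store lipocalin 2. The summed signal of 7 tested neutrophil genes was 1487, 7317, and 5674 in the B6 mice and 2658 to 3731 in NZW. Of their 8 probes 0 were called by limma, against 18.8% of all tested probes. The part of the neutrophil genes in the Lcn2 result was not tested.

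Spp1 (probe ILMN_2690603, chromosome 5) had levels of 13.28, 13.25, and 12.58 in the B6 mice and of 12.44, 12.30, and 12.29 in the NZW mice. The strains did not overlap, and the NZW mice spanned a narrow range, with an SD of 0.084. The difference was 0.69 (SE 0.19, adjusted p = 0.034 with limma), or 1.61-fold, and 0.92 (adjusted p = 0.0023 with limma) without B6 mouse 3. The call held in 1 of the 6 fits that left out a mouse, with adjusted p up to 0.11 in limma. With scaling to the 75th percentile the difference was 0.48 (adjusted p = 0.072 with limma).

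No probe named Clu was found, but 1 probe (ILMN_2727153) carries the symbol LOC100046120 and a search key that RefSeq lists as a transcript of Clu. It is not a member and was looked up after the missing symbol had been seen. Its levels were 13.36, 13.29, and 12.77 in the B6 mice and 12.39, 12.74, and 12.70 in the NZW mice. B6 mouse 3 was again the lowest of its strain and was just above NZW. The difference was 0.53 (SE 0.18, adjusted p = 0.074 with limma) and did not pass the threshold.

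Timp1 (probe ILMN_2769917, chromosome X) had levels of 8.23, 8.80, and 6.80 in the B6 mice and of 5.92, 5.88, and 6.46 in the NZW mice. The lowest B6 mouse, mouse 3, was above the highest NZW mouse, also mouse 3, by less than the range within either strain. The difference was 1.86 (SE 0.44, adjusted p = 0.020 with limma), or 3.63-fold, and 2.43 (adjusted p = 0.0004 with limma) without B6 mouse 3. The call held in 3 of the 6 fits that left out a mouse, with adjusted p up to 0.071 in limma. Macrophages and fibroblasts also make Timp1, Spp1, and Vim. The summed signal of 11 tested macrophage genes was 3999 to 7390 in B6 and 2935 to 3661 in NZW. Against 18.8% of all tested probes, 1 of their 13 probes was called, that of the complement gene C1qb (1.02, SE 0.13). The summed signal of 5 tested fibroblast and muscle genes was 6979 to 11657 in B6 and 7013 to 7961 in NZW, with the collagen gene Col1a1 (1.49, SE 0.43) and the smooth muscle actin gene Acta2 (0.95, SE 0.17) called higher in B6. Both sums were lowest within B6 in mouse 3. Their part in the member results was not tested.

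Vim had 1 detected probe (ILMN_3161394, chromosome 2), with levels of 10.89, 11.43, and 10.33 in the B6 mice and of 10.22, 9.996, and 10.04 in the NZW mice. The strains did not overlap, with B6 mouse 3 just above NZW mouse 1. The difference was 0.80 (SE 0.24, adjusted p = 0.052 with limma) and missed the threshold with all mice, whereas it was 1.07 (adjusted p = 0.0063 with limma) without B6 mouse 3. That was the 1 of the 6 fits leaving out a mouse that passed. In the other fits the difference was 0.53 to 0.87, with adjusted p from 0.09 to 0.13 in limma. The other Vim probe (ILMN_1232980) was detected in none of the 6 mice.

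Vcam1 had 5 probes, of which 2 were tested. ILMN_1258714 (chromosome 3) had levels of 9.28, 9.06, and 8.71 in the B6 mice and of 8.86, 8.77, and 8.53 in the NZW mice. The strains overlapped, with a difference of 0.30 (SE 0.16, adjusted p = 0.25 with limma). The dimmer ILMN_1220800 had levels of 6.60, 5.73, and 5.17 in the B6 mice and of 5.37, 5.33, and 5.58 in the NZW mice, with a difference of 0.40 (SE 0.31, adjusted p = 0.41 with limma). The remaining Vcam1 probes (ILMN_1232768, ILMN_1241993, and ILMN_2506711) were detected in no B6 or NZW mouse.

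**Figure D1:**
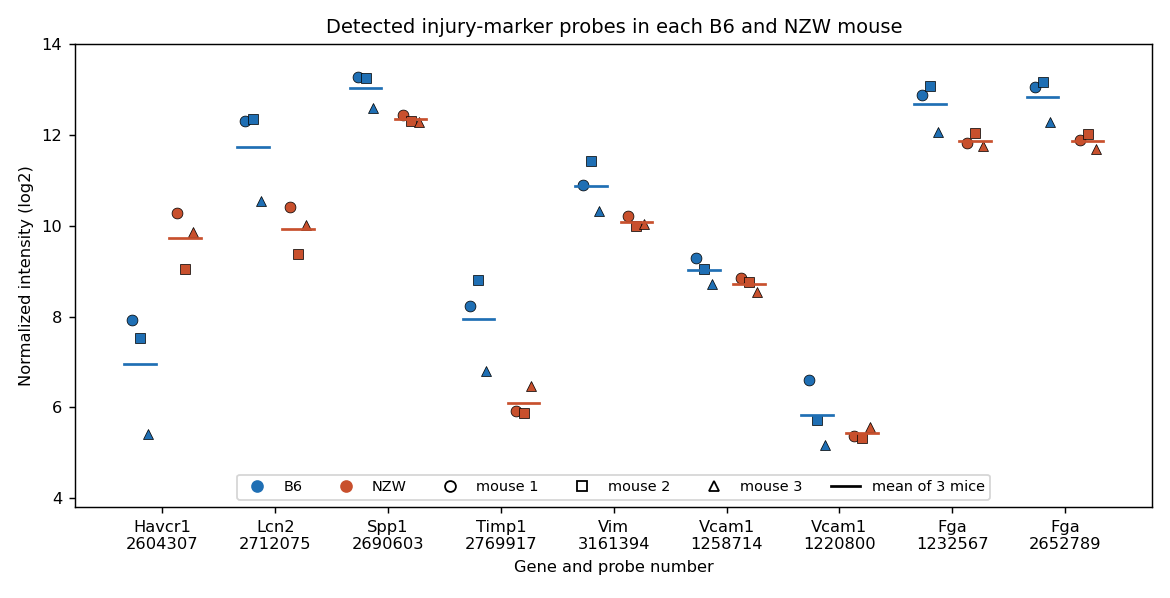
Normalized intensity (log2) of the 9 tested member probes in each of 3 B6 (blue) and 3 NZW (red) mice, with a symbol for each mouse number and a line at the mean of 3 mice. B6 mouse 3 (blue triangle) is the lowest B6 mouse in all 9 probes, and Havcr1 is the probe in which B6 lies below NZW.

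Of the fibrinogen genes, neighbours on chromosome 3, Fga was detected in every mouse of every strain, whereas the probe of Fgb (ILMN_1218075) was detected in none of 15 mice and that of Fgg (ILMN_1223400) in none of 6. Fgb and Fgg were thus not well above background with these probes. The bases before the RefSeq start of each gene (GRCm38.p6, 250 bases, 5′ to 3′ in the direction of the gene) are shown because the chains are parts of 1 protein and gave unlike signals. Capitals mark matches of TTCNNNGAA, the pattern bound by STAT factors, which reads the same on both strands. They are Fga at chr3:83025903-83026152 on the plus strand, Fgb at chr3:83049864-83050113 on the minus strand, and Fgg at chr3:83007474-83007723 on the plus strand.
Fga: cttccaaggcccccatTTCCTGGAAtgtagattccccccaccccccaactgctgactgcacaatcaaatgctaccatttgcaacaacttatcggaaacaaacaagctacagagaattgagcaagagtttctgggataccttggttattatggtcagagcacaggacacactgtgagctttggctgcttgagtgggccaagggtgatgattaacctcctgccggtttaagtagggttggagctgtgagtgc
Fgb: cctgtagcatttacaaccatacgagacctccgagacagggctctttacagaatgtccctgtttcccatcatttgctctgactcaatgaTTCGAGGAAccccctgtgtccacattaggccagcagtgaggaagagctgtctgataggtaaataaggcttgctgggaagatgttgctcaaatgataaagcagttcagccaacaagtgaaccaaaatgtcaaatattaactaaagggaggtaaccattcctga
Fgg: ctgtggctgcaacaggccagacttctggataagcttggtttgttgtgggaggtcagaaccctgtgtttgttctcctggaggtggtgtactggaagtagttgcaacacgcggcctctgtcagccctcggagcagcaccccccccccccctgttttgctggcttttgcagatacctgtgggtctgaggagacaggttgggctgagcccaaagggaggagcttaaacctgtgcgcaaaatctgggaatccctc
Fga and Fgb hold 1 match each and Fgg holds none, while 7.02% of 32851 promoters of the same length hold at least 1. A match is a run of letters and not a measured site. Fgb and Fgg rest on 1 probe each. Whether the promoters or the probes had a part in the unlike signals was not tested.

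The Fga probe ILMN_2652789 had levels of 13.05, 13.16, and 12.29 in the B6 mice and of 11.88, 12.03, and 11.68 in the NZW mice. The strains did not overlap, with a difference of 0.97 (SE 0.22, adjusted p = 0.017 with limma), or 1.96-fold. The other Fga probe, ILMN_1232567, had levels of 12.87, 13.07, and 12.07 in B6 and of 11.82, 12.03, and 11.75 in NZW, with a difference of 0.80 (SE 0.24, adjusted p = 0.047 with limma). Without B6 mouse 3 the differences were 1.24 (adjusted p = 0.0011 with limma) and 1.10 (adjusted p = 0.0018 with limma). With scaling to the 75th percentile the second probe had a difference of 0.60 (adjusted p = 0.081 with limma). The calls held in 2 and in 1 of the 6 fits that left out a mouse, with adjusted p up to 0.063 and up to 0.14 in limma. The liver genes Alb, Apoh, and Cps1 were detected in no B6 or NZW mouse, and the summed signal of the 6 tested genes of the hepatocyte list, some of which the kidney also expresses, was 4986 to 5395 in B6 and 6225 to 8297 in NZW. Of the 7 tested probes of that list 3 were called higher and 2 lower in B6, against 9.24% and 9.60% of all tested probes. Apoa2, an apolipoprotein gene, was higher in B6 by 3.95 (SE 0.18, adjusted p = 1.3e-06 with limma) and Fgl1, a fibrinogen-like gene, by 3.46 (SE 0.18, adjusted p = 2.8e-06 with limma), whereas Ttr, the transthyretin gene, and Apob fell by 0.90 (SE 0.16) and by 0.85 (SE 0.14). The NZW mice were close to background in both Apoa2 (4.73, 4.65, and 4.62) and Fgl1 (5.42, 4.92, and 5.21). Apoa2 and Fgl1 were highest within B6 in mouse 3, in which Fga was lowest. Their part in the Fga result was not tested.

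In BALB/C, DBA1, and 129/svj none of the 4 tested member rows was called in any comparison. Over all 15818 tested probes, 5.75% were called for BALB/C minus DBA1, 4.82% for BALB/C minus 129/svj, and 4.48% for DBA1 minus 129/svj. At an unadjusted p below 0.05, limma gave 1 of 4 rows for BALB/C minus DBA1, that of Timp1, and 0 of 4 for the others. The mice of 2 strains did not overlap in 1 of 4 member rows for BALB/C minus DBA1, against 25.5% of all tested probes, in 0 of 4 for BALB/C minus 129/svj, against 21.9%, and in 0 of 4 for DBA1 minus 129/svj, against 17.0%.

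Timp1 had levels of 6.09, 5.88, and 6.50 in the BALB/C mice, of 6.76, 7.90, and 7.91 in the DBA1 mice, and of 6.46, 6.27, and 7.95 in the 129/svj mice. All BALB/C mice were below all DBA1 mice, and 129/svj held 2 mice in the range of BALB/C and 1 at the level of the highest DBA1 mice. In order, the means were 6.16 ± 0.315 for BALB/C, 6.89 ± 0.916 for 129/svj, and 7.52 ± 0.661 for DBA1 (SD, n = 3). The difference of BALB/C minus DBA1 was -1.37 (SE 0.45, adjusted p = 0.12 with limma), that of BALB/C minus 129/svj was -0.74 (SE 0.45, adjusted p = 0.51 with limma), and that of DBA1 minus 129/svj was 0.63 (SE 0.45, adjusted p = 0.65 with limma), so no neighbours in this order differed beyond the spread between mice. Without 129/svj mouse 3, which enters the shared estimate of the spread, the adjusted p of BALB/C minus DBA1 was 0.03 with limma. Without DBA1 mouse 3 the difference was -1.18 (adjusted p = 0.25 with limma).

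Thus Timp1 was higher in the resistant strain of one table, B6, and at its lowest mean in the resistant strain of the other, BALB/C. With both tables normalized together over matched probes, the difference of B6 minus NZW was 1.62 and that of BALB/C minus the mean of DBA1 and 129/svj was -1.11. Their difference was 2.73 (SE 0.66, adjusted p = 0.014 over 6896 probes with limma), a test chosen after the values had been seen. Of 4 member probes with a unique match that were tested in this way, it was the 1 that was called. The strains and the tables coincide in part, and whether the table had a part in this difference was not tested.

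Fga had the largest spread between mice of the member rows in all 3 strains of this table. Its levels were 11.69, 10.94, and 9.83 in the BALB/C mice, 9.60, 10.65, and 12.80 in the DBA1 mice, and 10.24, 9.78, and 11.94 in the 129/svj mice. Each strain held mice at both low and high levels, and the 3 strains overlapped throughout. The means were 10.82 ± 0.939 for BALB/C, 11.02 ± 1.634 for DBA1, and 10.66 ± 1.138 for 129/svj (SD, n = 3), and the highest mouse was 3.65-fold, 9.22-fold, and 4.47-fold above the lowest of its strain. The difference was -0.20 for BALB/C minus DBA1, 0.16 for BALB/C minus 129/svj, and 0.36 for DBA1 minus 129/svj (SE 0.82 each, adjusted p from 0.92 to 0.96 with limma). With that error, differences of Fga of the size seen between B6 and NZW were not detectable here. Without DBA1 mouse 3 the difference of BALB/C minus DBA1 was 0.70, and without 129/svj mouse 3 that of BALB/C minus 129/svj was 0.81, both with an adjusted p of 0.66 or more in limma.

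The second array of mouse 1 of these strains shows how far an array repeats. For Fga the repeat arrays differed by 0.03 in BALB/C, 0.01 in DBA1, and 0.07 in 129/svj, whereas the mice of a strain spanned 1.87, 3.20, and 2.16. For Timp1 the repeats differed by 0.17, 0.07, and 0.16, and the mice spanned 0.62, 1.15, and 1.67. Over all tested probes the median repeat difference was 0.14 to 0.17 and the median span between mice 0.33 to 0.43. The spread of Fga and Timp1 between mice was thus larger than the spread between arrays of 1 mouse. For the dim rows this did not hold throughout. In DBA1 the Vim repeats differed by 0.43, more than the 0.38 spanned by the mice. In BALB/C the Vcam1 repeats differed by 0.49 and the mice spanned 0.61. In the remaining strains the repeats of these rows differed by 0.06 to 0.09, and the mice spanned 0.11 to 0.57.

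**Figure D2:**
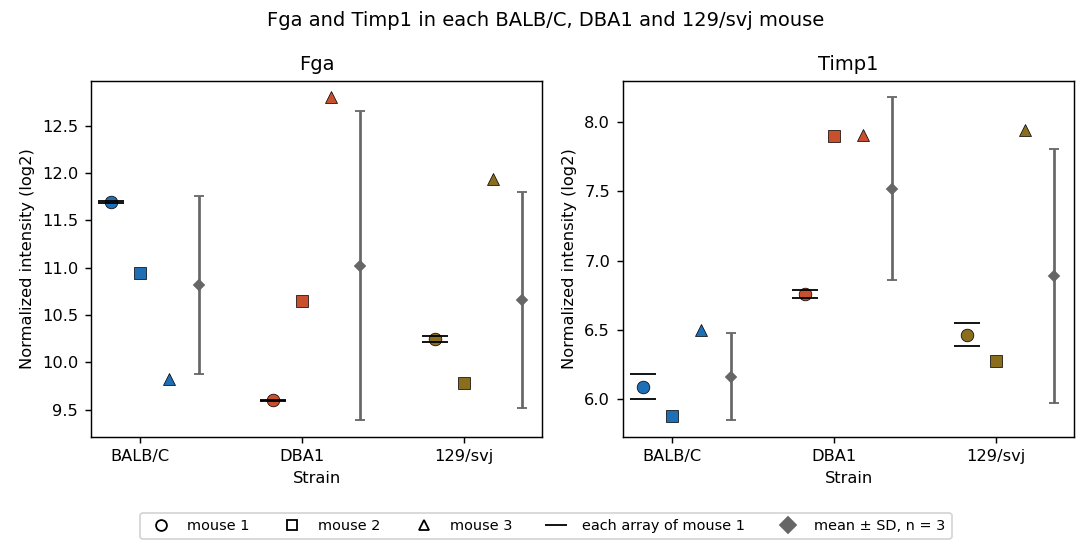
Normalized intensity (log2) of Fga and Timp1 in each of 3 BALB/C, 3 DBA1, and 3 129/svj mice (symbols by mouse number), with a dash for each of the 2 arrays of mouse 1 and the mean ± SD of 3 mice in grey. The repeat arrays of Fga lie within 0.07, while DBA1 mice run from 9.60 to 12.80.

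The remaining rows were dim. Vim, read with the probe that was detected in no B6 or NZW mouse, was at 5.62 to 6.19 in BALB/C, 5.58 to 5.95 in DBA1, and 5.45 to 5.84 in 129/svj, with differences of 0.06 to 0.20 (SE 0.19). Vcam1, read with ILMN_1241993, was at 5.28 to 5.89, 5.53 to 5.73, and 5.55 to 5.67, with differences of -0.12 to 0.04 (SE 0.17). The other rows of Vcam1 were each detected in at most 1 mouse of a strain and were not tested. ILMN_1220800 reached its highest level, 6.45, in 129/svj, where the other mice were at 4.74 and 4.85.

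**Figure D3:**
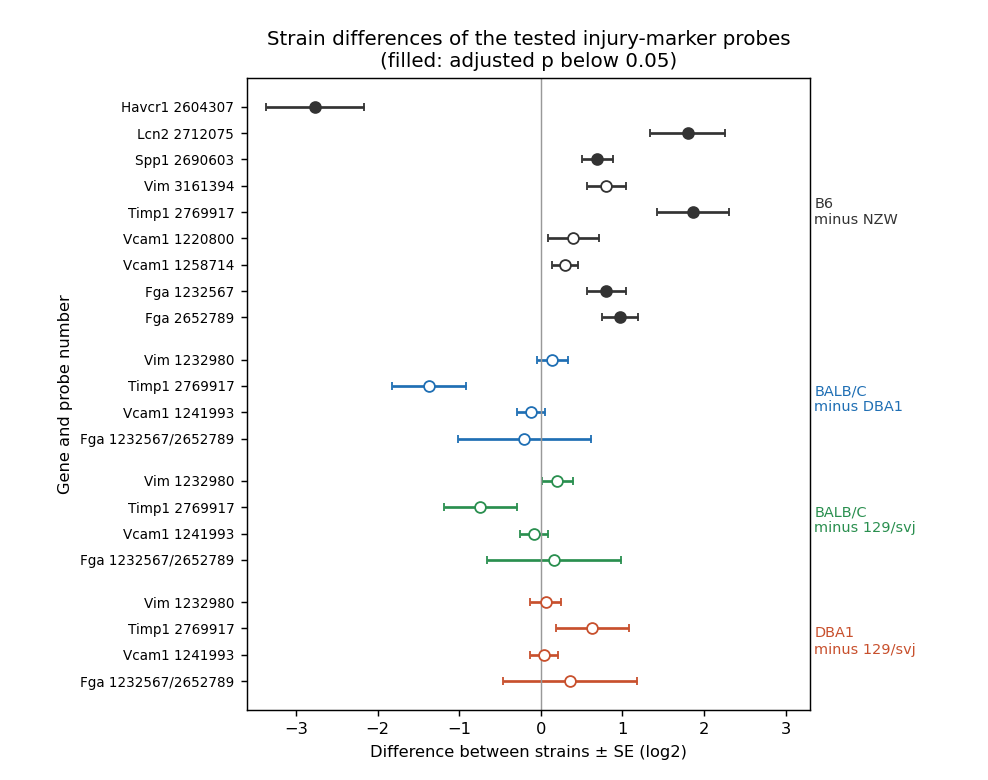
Difference between strains ± SE (log2) for each tested member probe in B6 minus NZW (9 probes) and in the comparisons of BALB/C, DBA1, and 129/svj (4 rows each). Filled points, those with an adjusted p below 0.05, occur in B6 minus NZW, from -2.77 for Havcr1 to 1.86 for Timp1, and the bars of Fga are widest in the other strains.

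The spread between mice in these genes differed from strain to strain. Over the 9 tested member probes the SD between B6 mice was 0.288 to 1.356 with a median of 0.547, against a median of 0.121 over all tested probes, and all 9 were above that median. In NZW the SD was 0.084 to 0.624 with a median of 0.167, against 0.166 over all tested probes, and 5 of 9 were above it. In BALB/C, DBA1, and 129/svj the median SD of the 4 rows was 0.316, 0.426, and 0.562, against 0.172, 0.223, and 0.212 over all tested probes, and 4, 2, and 2 of the 4 rows were above that value. In DBA1 and 129/svj those above were Fga and Timp1, while the dim Vim and Vcam1 rows were below. Without 129/svj mouse 3 the median SD of the members in 129/svj was 0.109, against 0.141 over all tested probes. Without DBA1 mouse 1 that in DBA1 was 0.198, against 0.223. In the other fits that left out a mouse of these strains, the member median stayed above. With the tables normalized together, which leaves out Fga, it was 0.345 against 0.190 in BALB/C, 0.220 against 0.242 in DBA1, and 0.204 against 0.236 in 129/svj. The SD of Fga was larger than that of 99.7%, 99.9%, and 99.5% of all tested probes in these strains, and the SD of Timp1 larger than that of 82.8%, 95.5%, and 98.8%. In B6 the SD of Havcr1 was larger than that of 99.9% of all tested probes, and in NZW than that of 99.1%.

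Within B6, mouse 3 stood apart in these genes. B6 mouse 3 was the lowest of its strain in 9 of 9 tested member probes, whereas it was the lowest for 33.9% of all tested probes. It was lower than both other B6 mice by at least 0.5 in 8 of 9 member probes, against 1.46% of all tested probes, a size that was chosen after the values had been seen. Without it, the median SD of the members in B6 was 0.158, against 0.0897 over all tested probes. Havcr1 was low in this mouse together with Lcn2, Timp1, and Fga, although between the strains Havcr1 went the other way. In the other table the mice with high Fga and high Timp1 were DBA1 mouse 3 and 129/svj mouse 3, the highest of their strains in both genes, whereas in BALB/C mouse 1 was the highest in Fga and mouse 3 in Timp1. DBA1 mouse 3 and 129/svj mouse 3 also stood apart from their strain over all tested probes. In Timp1, DBA1 mouse 2, at 7.90, was level with DBA1 mouse 3, at 7.91. Within 1 array, the standard error over 28 to 70 beads was 2.16% to 6.56% of the raw signal for the tested member probes. The raw signal includes background, so for dim rows such as Vim and Vcam1 this share cannot be set directly against the SD between mice.

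**Figure D4:**
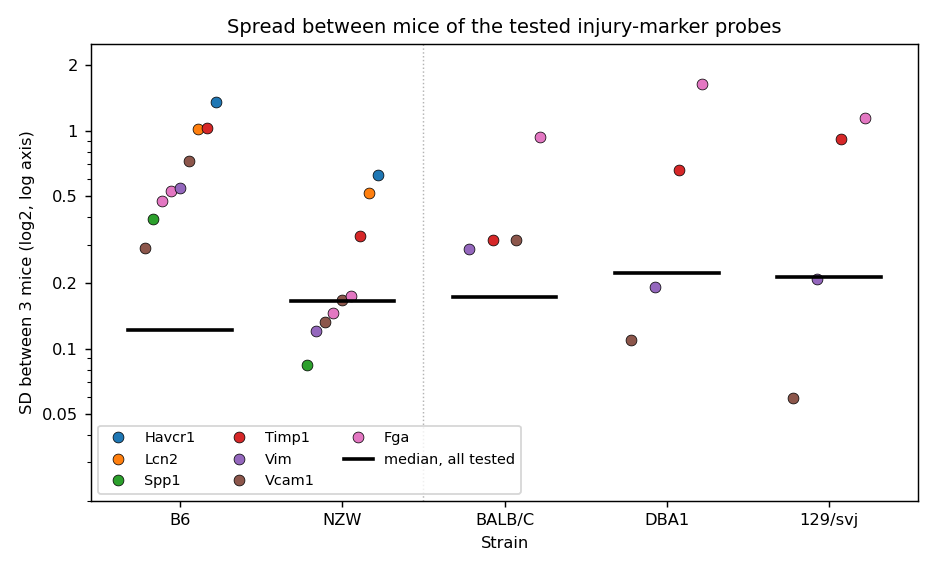
SD between the 3 mice of a strain (log2, on a log axis) for each tested member probe, coloured by gene, with a bar at the median over all tested probes of that strain, and a dotted line between the tables. All 9 B6 points lie above the bar at 0.121, and Fga has the largest SD in BALB/C, DBA1, and 129/svj.

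Other genes that are known to rise in injured tubules were read as a list. In B6 minus NZW, 7 of its 30 tested probes were called higher and 2 lower, with a median of 0.21 against -0.04 over all tested probes. Of all tested probes 9.24% were called higher and 9.60% lower. The complement gene C3 had levels of 12.06, 12.32, and 10.66 in the B6 mice and of 10.41, 10.37, and 10.36 in the NZW mice, a difference of 1.30 (SE 0.37, adjusted p = 0.041 with limma). The neutrophil chemokine gene Cxcl1 rose by 1.20 (SE 0.23, adjusted p = 0.0080 with limma), and the keratin genes of simple epithelia Krt18 and Krt8 fell by 0.71 (SE 0.14) and by 0.39 (SE 0.10) in B6. The summed signal of the list was 39459, 39772, and 26775 in the B6 mice and 26985 to 30301 in NZW, so B6 mouse 3 lay below every NZW mouse. In BALB/C minus DBA1, 0 of 12 probes were called higher and 2 lower with limma, against 5.75% called over all tested probes. With limma, the endotoxin receptor gene Cd14 fell by 2.79 (SE 0.54, adjusted p = 0.014) and ceruloplasmin, Cp, by 1.20 (SE 0.24, adjusted p = 0.016). No probe of the list was called in the other comparisons. Its summed signal was 9332 to 10584 in the BALB/C mice, 10392, 15334, and 20260 in the DBA1 mice, and 10732, 7641, and 20445 in the 129/svj mice, with the highest values in DBA1 mouse 3 and 129/svj mouse 3. Both of these mice also stood apart from their strain over all tested probes.

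Among the receptors, ligands, and relatives of the members, 2 of 22 probes were called higher and 4 lower in B6 than in NZW, with a median of -0.01. Over all tested probes 9.24% were called higher and 9.60% lower. Timd2, a relative of Havcr1, had levels of 8.68, 8.18, and 7.74 in the B6 mice and of 5.83, 5.99, and 6.05 in the NZW mice, a difference of 2.25 (SE 0.21, adjusted p = 0.00015 with limma) and thus opposite in sign to that of Havcr1. It was also higher in DBA1 than in 129/svj, by 2.43 (SE 0.46, adjusted p = 0.013 with limma), the 1 call among the 10 tested probes of this list in the comparisons of that table. Mmp14, a membrane metalloproteinase, rose by 0.73 (SE 0.17) in B6, and Itgav, an integrin chain that binds osteopontin, fell by 0.97 (SE 0.14). In the acute phase list, to which interleukin 6 and STAT3 belong, 3 of 17 probes were called higher and 1 lower in B6 than in NZW. The shares of all tested probes to set beside these counts are the same 9.24% and 9.60%. The serum amyloid gene Saa1 had levels of 8.19, 9.25, and 7.17 in the B6 mice and of 4.69, 4.59, and 4.64 in the NZW mice, a difference of 3.56 (SE 0.42, adjusted p = 0.00055 with limma), with B6 mouse 3 again the lowest of its strain. In Il6st, with a difference of 3.22 (SE 0.10, adjusted p = 2.1e-07 with limma), the B6 mice were at 7.75, 7.89, and 7.90. The NZW mice were at 4.64, 4.55, and 4.70, close to background, and Il6st was detected in no BALB/C, DBA1, or 129/svj mouse. Whether the probe had a part in this difference was not tested. In Cebpd, with a difference of -0.92 (SE 0.16), the B6 mice were at 7.35, 7.06, and 7.36. In neither of these genes was B6 mouse 3 the lowest. In the coagulation list 0 of 12 probes were called higher and 2 lower with limma, against 9.24% and 9.60% of all tested probes. Serpinf2, the plasmin inhibitor, differed by -0.63 (SE 0.12) and F13b, a subunit of the factor that links fibrin, by -0.53 (SE 0.13). No probe of the acute phase or coagulation list was called between BALB/C, DBA1, and 129/svj.

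Over the 9 mice of BALB/C, DBA1, and 129/svj, the probe whose levels were most like those of Fga was Wdfy1 (Pearson r = 0.978), followed by Ccdc120 (r = 0.956) and F2rl1 (r = 0.941). For Timp1 they were Fbn1 (r = 0.973), the gene of the matrix protein fibrillin 1, E030018N11Rik (r = 0.971), and Msn (r = 0.970), and for the dim Vim row Sf3a3 (r = 0.914), 4733401H18Rik (r = 0.912), and Nfyb (r = 0.887). These are descriptions over mice of 3 strains that share a table and its normalization, picked as the highest among all tested probes.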

How the data were processed

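The authors extracted RNA with Trizol and RNeasy columns, labelled cRNA with biotin, hybridised it to Illumina Mouse WG-6 BeadChips, and exported it from BeadStudio. The deposited values are scanner intensities without normalization, their standard errors and bead numbers, and a detection p-value for each probe and array. How the detection p-values were set is not given in the sources used here. The background was corrected by normexp (offset 16, with the negative controls inferred from detection p), each table was quantile normalized on its own, log2 was taken, and mouse 1 of 3 strains, which has 2 arrays, entered as their mean. Its detection p was likewise the mean of its 2 arrays. The titles of these second arrays have the form used for a further mouse. Their descriptions call them replicates of mouse 1, so they were taken as its repeat arrays. Within a table, probes that reached a detection p of 0.05 in 3 mice entered the limma fit (version 3.58.1, R 4.3.3), with strain as the factor, one shared spread, eBayes, and Benjamini-Hochberg adjustment. Python 3.11.15 and pandas 2.3.3 joined the tables, and figures were drawn with matplotlib 3.10.9. The fit was tested on simulated data.

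The members and the 15 gene lists were chosen with earlier results of these data known. Every member probe is reported, and from each list at most 2 called probes with the largest rise and 2 with the largest fall per comparison. For each member with a tested row among the 9 mice, the brightest row and the 3 rows of other genes most correlated with it were taken, and given where the first r exceeded 0.9. Alternatives covered scaling, background correction, filter, joint normalization, repeat arrays, a replicate block, the t-test of the methods, another variance model, and each mouse left out. Over all tested probes, the deviations of same-numbered DBA1 and 129/svj mice correlated with r of 0.192, 0.105, and 0.387, above 0.1 in each pair. Those of same-numbered mice of the other strains of a table ranged from -0.259 to 0.133. Unlike-numbered mice of different strains ranged from -0.419 to 0.4, with 0.341 for 129/svj mouse 2 and DBA1 mouse 1. The labels give no pairing and these values do not establish one, so the replicate block was run as an alternative only. The number of arrays limits the precision. Symbols are the deposited ones and can be old.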

Additional observations from a re-analysis of the deposited data

Results flagged for a closer look

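The strain difference of Timp1 was not the same in both tables. B6 minus NZW, less BALB/C minus the mean of DBA1 and 129/svj, was 2.73 (SE 0.66, adjusted p = 0.014 over 6896 probes with limma), a test of the difference itself that was chosen after the values had been seen. It passed the threshold in each of the 24 alternatives run for it, with values of 1.57 to 3.26 and adjusted p from 0.0032 to 0.048 with limma. The t-test of the methods was not among these. With that t-test, Timp1 was called neither in B6 minus NZW (adjusted p = 0.16) nor in BALB/C minus DBA1 (adjusted p = 0.23). Groups of 3 mice are too small for a test of single outlying mice, so none was made.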

How the results depend on the processing

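The number of member probes called for B6 minus NZW, 6 of 9, was 4 with scaling to the 75th percentile, 7 with no background correction, an offset of 50, or a replicate block, and 6 with probes detected in every mouse. It was 2 with a trended and robust variance, 1 of the 2 probes left when the tables were normalized together, 0 of 15 with no filter on dim probes (7 at an unadjusted p below 0.05 with limma), and 0 with the t-test of the methods (4 before adjustment). Leaving out each mouse gave 1 to 7. The cause was not tested. For BALB/C minus DBA1 the number was 0, with 1 for the t-test of the methods before adjustment, and 0 to 1 when a mouse was left out. For BALB/C minus 129/svj and DBA1 minus 129/svj it was 0 under every alternative run. No called member changed sign, and of 256 values uncalled under both settings 12 changed sign. For DBA1 minus 129/svj, the replicate block over the mice of that table left the member count at 0 and gave 678 calls over all probes against 709. In the other comparisons the replicate block changed no member count other than that of B6 minus NZW. Same-numbered mice are not known to share more than a number. Over all probes, the t-test of the methods called 1852 for B6 minus NZW, 399 for BALB/C minus DBA1, 318 for BALB/C minus 129/svj, and 218 for DBA1 minus 129/svj, against 3159, 909, 763, and 709. Probes near background are compressed by the offset. Timp1 in NZW, BALB/C, DBA1, 129/svj, and B6 mouse 3, and Havcr1 in B6, lie toward that end. In B6 mouse 1 and mouse 2, Timp1 was at 8.23 and 8.80.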

Other observations

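Markers of other cells of the cortex are given here as counts. Over all tested probes limma called 9.24% higher and 9.60% lower in B6 than in NZW. It called 5.75% for BALB/C minus DBA1, 4.82% for BALB/C minus 129/svj, and 4.48% for DBA1 minus 129/svj. Between B6 and NZW, limma called 2 of 20 probes of the thick limb, distal, and collecting duct list higher in B6 and 1 lower, that of Pvalb, a calcium-binding protein of the distal tubule, by -2.38 (SE 0.23). It called 1 higher and 2 lower of 7 podocyte probes, 2 higher and 0 lower of 11 endothelial probes, 3 higher and 2 lower of 7 hepatocyte probes, 0 of 5 lymphocyte probes, 3 higher and 0 lower of 12 erythrocyte probes, and 0 higher and 1 lower of 7 immediate-early probes. In the table of BALB/C, DBA1, and 129/svj, Pvalb was higher in BALB/C than in DBA1 by 3.25 (SE 0.74, adjusted p = 0.031 with limma) and Calb1, another calcium-binding protein of the distal tubule, by 1.25 (SE 0.31, adjusted p = 0.045 with limma). Apob, the apolipoprotein B gene of the hepatocyte list, was lower in BALB/C than in DBA1 by -2.89 (SE 0.22) and than in 129/svj by -3.30 (SE 0.22). The proximal tubule list had 0 of 13 probes called for BALB/C minus DBA1, 1 higher and 1 lower for BALB/C minus 129/svj, and 1 higher for DBA1 minus 129/svj. No probe of the podocyte, endothelial, fibroblast and muscle, macrophage, neutrophil, lymphocyte, erythrocyte, or immediate-early lists was called there by limma.

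The single tested neutrophil probe of that table gave 1027 in 129/svj mouse 3 and 292 and 29 in the other 129/svj mice, and the macrophage sum was 1355, 547, and 403 in the same order. The same 129/svj mouse 3 also had the highest Fga and Timp1 of its strain, and it stood apart from its strain over all tested probes. In BALB/C, mouse 3 had the highest neutrophil value, 345, and the highest macrophage sum, 639, with the highest Timp1 but the lowest Fga of its strain. In DBA1 the macrophage sum was 702, 841, and 984 in mouse 1 to mouse 3, and the neutrophil value was 166, 198, and 276.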
